A study of Neurospora crassa with 14 samples.

Results

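The rlp1 deletion and the rlp2 deletion of the filamentous fungus Neurospora crassa were compared gene by gene, to read where the loss of one of these genes gave other messenger RNA levels than the loss of the other. Of the 14 libraries of the series, 2 came from strains labelled ∆rlp1 (∆NCU09007) and 2 from strains labelled ∆rlp2 (∆NCU02898). Both groups were joined through the authors' deposited comparisons with the same wild type group, by taking for each gene the log2 change without rlp1 minus the log2 change without rlp2, so that the wild type level cancels. Of 9477 genes in the tables, 9188 could be tested, and the other 289 lacked a usable p-value in at least 1 of the tables.

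All strains were mycelium from 5 ml cultures in Vogel's minimal medium with 1.5% sucrose, shaken at 32 °C for 16 h, and a stranded mRNA kit was used to build the libraries. The 2 samples of the rlp1 deletion, of the rlp2 deletion, of wild type and of the sds3 (∆NCU01599) and eaf-3 (∆NCU06788) deletions were in each group 2 different strains. The labels name no other allele in these groups, and they give neither the mating type nor the lighting of the cultures. Values per library and read totals are not in the tables, so the depth is unknown and the values of single samples cannot be shown. The ± below is a standard error derived from the deposited p-values, which covers the spread between libraries as the authors' model saw it.

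RPD3 is a histone deacetylase that works in fungi within a large complex, RPD3L, and a small one, RPD3S. Removal of acetyl groups from histones by the large complex at promoters is a known route to repression in yeast, while the small complex acts over transcribed genes. In yeast, Sds3 belongs to the large complex and Eaf3 to the small one. The study's design names the strains as mutants of RPD3L and RPD3S.

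A gene's difference was tested in 2 ways. The first, conservative test (a Wald test with Benjamini-Hochberg adjustment over all 9188 genes) adds the squared standard errors of both comparisons and so counts the wild type spread in each of them, although it cancels. The second test rebuilds the standard error from a negative binomial variance without the wild type term. Its treatment of genes nearly silent in wild type was chosen after seeing the data. Unless the second is named, an adjusted p below is that of the first, and a gene is called where it lies under 0.05. Where marked as rebuilt or as by the second test, a ± is the second test's smaller error. Levels are group means on the authors' normalized scale, implied by the deposited averages and fold changes.

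The deleted genes were read first. The level of rlp2 was 345 in wild type, 44.7 without rlp2 and 785 without rlp1. The difference was 4.13 ± 0.43 on the log2 scale (adjusted p = 2.54e-18), the smallest adjusted p of all genes by the first test; by the second, per-1 had a smaller one. The level of rlp1 was 148 in wild type, 146 without rlp2 and 72.6 without rlp1. Messenger RNA of rlp1 was therefore still read in the libraries labelled as its deletion, 2.01-fold lower than without rlp2, a difference that did not pass the first test (adjusted p = 0.687) and lay at the edge of the second (adjusted p = 0.0505). Against wild type its change was -1.03 (FDR = 0.0111 in the authors' deposited table for rlp1). The rlp1 labels are thus less firmly checked by their own gene than the rlp2 labels. The words without rlp1 refer throughout to the libraries so labelled. In its own deletion sds3 also fell only in part, from 807 in wild type to 476 (log2 change -0.76), while eaf-3 fell in its own from 94.6 to 0.191. Between the rlp1 and rlp2 deletions the difference of sds3 was -0.12 ± 0.27 and that of eaf-3 was 0.73 ± 0.45, neither past either test.

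Across the genome, 78 genes were higher without rlp1 than without rlp2 (0.849% of genes tested) and 13 were lower (0.141%), 0.99% in both directions together. With the rebuilt standard error 333 were higher (3.62%) and 56 lower (0.609%), 4.23% in all, and these include all 91 genes of the first test. The higher genes were thus 85.7% of the calls by the first test and 85.6% by the second. The median difference of all genes was 0.00. At an unadjusted p under 0.05 there were 502 genes by the first test and 1260 by the second. The 95% interval of the difference lay within 1 log2 unit of 0 for 3644 genes (39.7%) by the first error and 5114 (55.7%) by the second, and for the other genes the interval reached beyond that size.

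**Figure D1:**
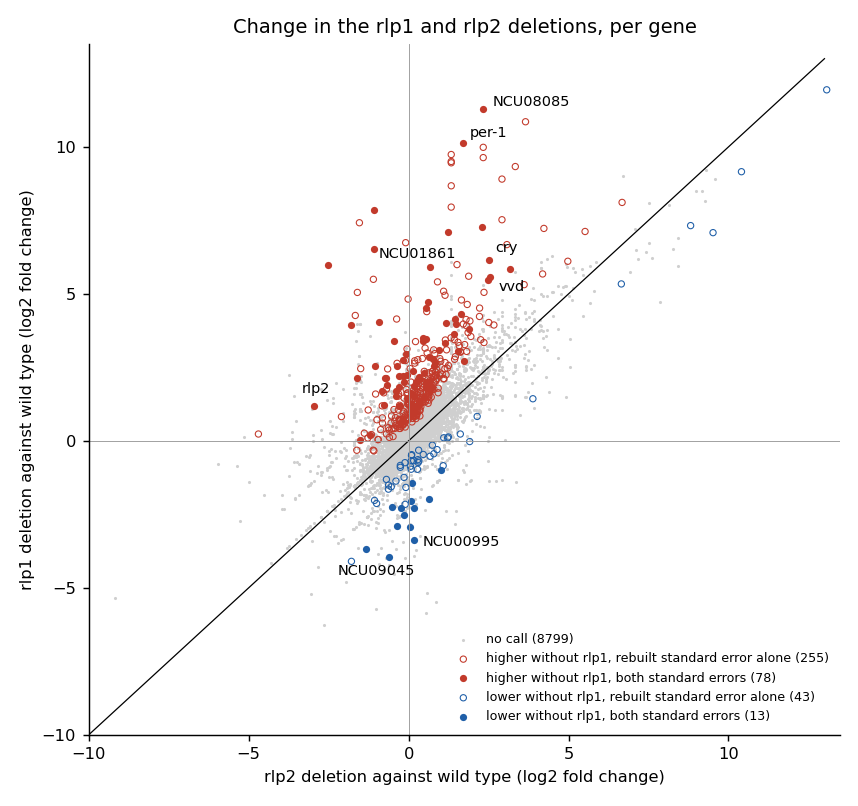
Each point is 1 of the 9188 genes, at its log2 fold change in the rlp2 deletion (x axis) and in the rlp1 deletion (y axis), both against the same wild type group. The line marks equal change. Filled points passed the conservative test (78 higher in red, 13 lower in blue), and open points passed with the rebuilt standard error alone. Most called genes lie above the line, and many of these sit near 0 on the x axis.

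In the scatter of both changes, most genes called higher had risen in the rlp1 deletion and fewer of them in the rlp2 deletion. By the FDR in the authors' deposited table for rlp1, 76 of the 78 higher genes had risen and none had fallen, with a median log2 fold change of 2.33, where 14.6% of its genes rose and 8.61% fell. In the authors' deposited table for rlp2, 14 of the same 78 had risen and 5 had fallen, with a median of 0.30. All 13 lower genes had fallen in the authors' deposited table for rlp1 (median -2.29). The authors' deposited table for rlp2 has 1 of those 13 up, 1 down and a median of 0.04. These counts share libraries with the difference itself and only describe it. Read from the other side, 585 genes had risen in the authors' deposited table for rlp2 (6.99% of its genes) and 337 had fallen (4.02%). Of the 585, 14 were higher and 1 lower without rlp1, and of the 337, 5 were higher and 1 lower. Among all 9188 genes tested, 78 (0.849%) were higher and 13 (0.141%) lower.

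Of 13 photoreceptor and clock genes tested, vvd and cry were called higher and none lower (15.4% called, beside 0.99% of all genes). Blue light is sensed in Neurospora by the White Collar complex of wc-1 and wc-2, which switches on photoreceptor and carotenoid genes, and vvd damps this response. The level of vvd, a blue light photoreceptor, was 233 in wild type, 1362 without rlp2 and 10963 without rlp1, and that of the sds3 deletion was 2639. The level without rlp1 was thus 8.05-fold that without rlp2 (difference 3.01 ± 0.57, adjusted p = 5.63e-05). The cryptochrome gene cry had levels of 73.9 in wild type, 421 without rlp2, 5297 without rlp1 and 2696 without sds3. Its difference was 3.65 ± 0.69, or 12.6-fold (adjusted p = 6.3e-05). The blue light-induced gene bli-4 went from 112 in wild type to 1016 without rlp2 and 6467 without rlp1 (difference 2.67 ± 0.58, adjusted p = 0.000995). In the eaf-3 deletion the levels of vvd, cry and bli-4 were 419, 149 and 135.

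Neither white collar gene passed the first test. For wc-2 the difference was -0.03, with a 95% interval from -0.74 to 0.68 by the first error. For wc-1 it was 0.67 ± 0.25 by the first error, past the second test (adjusted p = 0.00676) and not the first (adjusted p = 0.356). The clock gene frq had a difference of 1.07 and an interval from -0.10 to 2.23, so its levels of 2021 without rlp2 and 4232 without rlp1 were not told apart by either test. By the second test 3 of the 13 photoreceptor and clock genes were higher and none lower (23.1% called, beside 4.23% of all genes). Their median difference was 0.55, against 0.00 for all genes.

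The carotenoid pathway makes the orange pigment of Neurospora. The level of al-1, the phytoene desaturase, was 518 in wild type, 2885 without rlp2 and 22912 without rlp1, a difference of 2.99 ± 0.60 or 7.94-fold (adjusted p = 0.000179). For al-3, the geranylgeranyl diphosphate synthase, the levels were 997, 1585 and 4095 in the same order (difference 1.37 ± 0.35, adjusted p = 0.0171). The torulene-cleaving oxygenase cao-2 had levels of 422, 1390 and 2773 and a difference of 1.00 ± 0.27 (adjusted p = 0.0319). For these 3 genes the level without rlp2 lay between those of wild type and of the rlp1 deletion. The phytoene synthase gene al-2 had levels of 872, 3164 and 11209. It passed the second test (adjusted p = 0.000256) and not the first (1.82 ± 0.56, adjusted p = 0.0897). The 3 other genes of the list, cao-1, cut-1 and ylo-1, had differences of 0.23, -0.19 and -0.22, none past either test. In all, 3 of 7 carotenoid genes were called higher (42.9%, beside 0.99% of all genes called) and none lower, with a median difference of 1.00. By the second test 4 were higher (57.1%, beside 4.23% of all genes called).

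**Figure D2:**
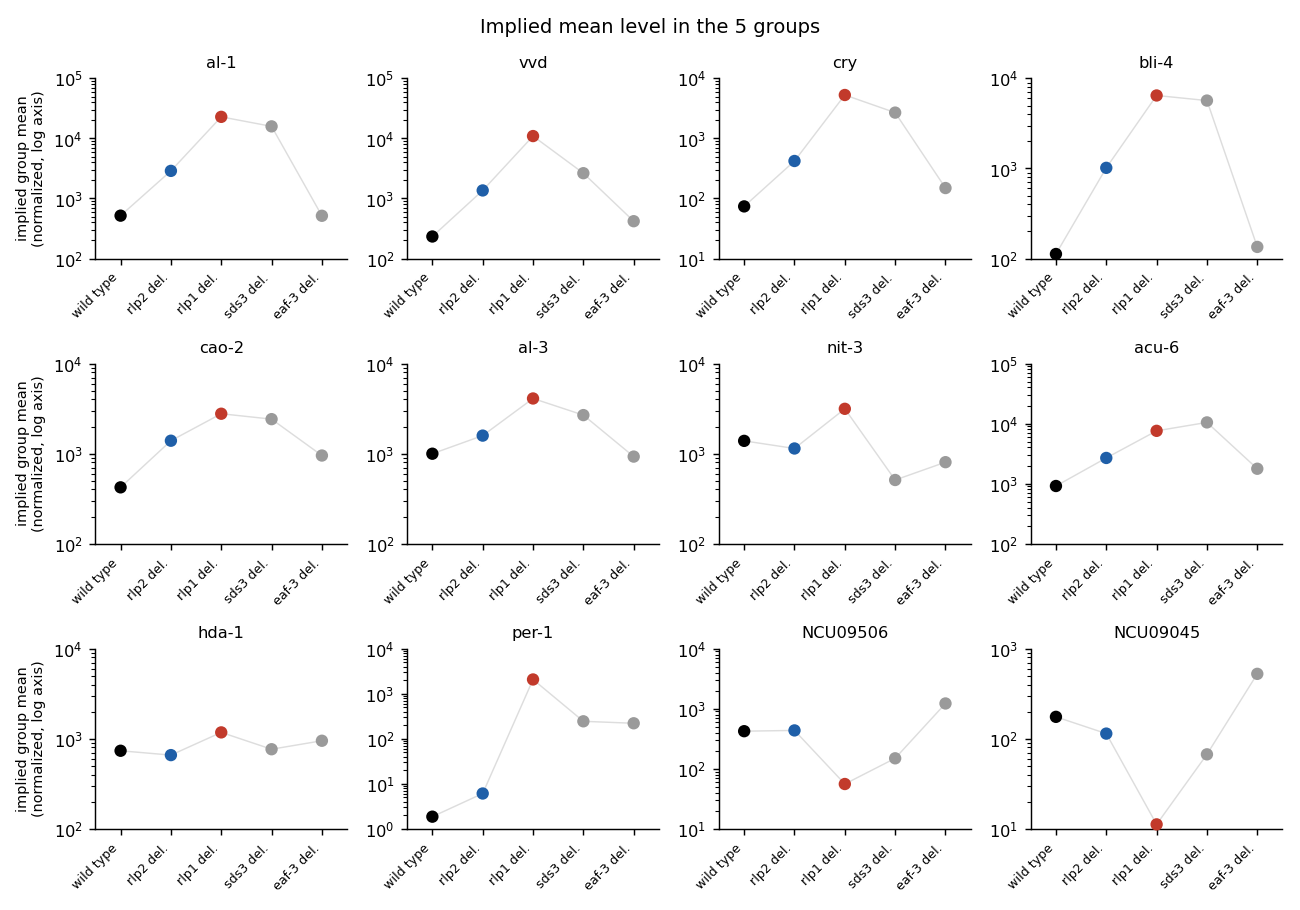
The implied mean level of 12 genes (log axes, the authors' normalized scale) in wild type (black), the rlp2 deletion (blue), the rlp1 deletion (red) and the sds3 and eaf-3 deletions (grey); each point is 1 group of 2 libraries and the grey lines only join them. For al-1 the levels were 518, 2885, 22912, 15903 and 515, and vvd, cry and bli-4 followed the same order of wild type, rlp2 and rlp1.

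Conidia are the asexual spores of Neurospora, and many genes of their development are under the clock. Of 24 conidiation and clock-controlled genes tested, 21 had a difference above 0, beside 4619 of all 9188 genes, and the median was 0.59. Only bli-4 was called by the first test (4.17%, beside 0.99% of all genes). By the second test 4 were higher and none lower (16.7% called, beside 4.23% of all genes). The second test added ccg-9 (1.81 ± 0.42, rebuilt), con-6 (2.64 ± 0.64, rebuilt) and con-13 (4.52 ± 1.21, rebuilt). Their levels were 1043 and 3654, 54.9 and 342, and 2.16 and 49.5 without rlp2 and without rlp1. The gene eas, which encodes the hydrophobin of the conidial wall, had levels of 20419 in wild type, 88426 without rlp2 and 219784 without rlp1. Its error was wide, and the difference of 1.31 ± 1.28 passed neither test. For con-8 the difference was 1.33 ± 0.80, again past neither.

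Of 9 nitrogen genes 1 was called higher and none lower (11.1%, beside 0.99% of all genes), and 4 had a difference above 0. By the second test 3 were higher and none lower (33.3%, beside 4.23% of all genes). The nitrate reductase gene nit-3 had levels of 1385 in wild type, 1140 without rlp2 and 3144 without rlp1, a difference of 1.46 ± 0.39 (adjusted p = 0.0215). The nitrite reductase gene nit-6 stood at 7516, 7325 and 17962, and nit-10, a nitrate transporter gene, at 1172, 1183 and 2811. Both passed the second test (adjusted p = 0.029 and 0.0374) and not the first (adjusted p = 0.612 and 0.656). In the sds3 deletion all 3 were below wild type, at 509, 5943 and 220, so the rlp1 and sds3 deletions lay on opposite sides of wild type for nit-3 by level. The regulator nit-2 had a difference of -0.22 ± 0.24. The median of the list was 0.00.

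In the phosphate list no gene of 7 passed the first test, where 3 had an unadjusted p under 0.05. The second test was passed by 3 (42.9%, beside 4.23% of all genes). These were pho-5, pho-4 and nuc-2, given with rebuilt errors and the adjusted p of the second test. The difference of pho-5, which encodes a high-affinity phosphate transporter, was 2.26 ± 0.47 (adjusted p = 0.000114). For pho-4, another phosphate transporter gene, it was 1.65 ± 0.46 (adjusted p = 0.0132). For nuc-2, a regulator of the phosphate starvation response, it was 0.70 ± 0.15 (adjusted p = 0.00033). Levels of pho-5 were 24.8 in wild type, 81.1 without rlp2, 389 without rlp1 and 17.5 without sds3. The phosphatase gene pho-3 was high in both deletions, at 615 without rlp2 and 862 without rlp1 against 42.5 in wild type, and its difference of 0.49 ± 0.62 passed neither test.

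Among the deacetylase genes, hda-1 had levels of 735 in wild type, 658 without rlp2 and 1177 without rlp1, a difference of 0.84 ± 0.23 or 1.79-fold (adjusted p = 0.0297). The sirtuin family gene nst-6 had levels of 35.6, 59.3 and 173 and passed the second test alone (1.55 ± 0.37, rebuilt, adjusted p = 0.00154). Of the 15 RPD3 and deacetylase genes 2 were called higher, 1 of which is the deleted rlp2, and none lower (13.3%, beside 0.99% of all genes). The list median was -0.12. None of 22 chromatin modifier genes and none of 9 histone genes was called by either test, with medians of -0.07 and 0.33. By the first test none of these had an unadjusted p under 0.05, and by the second 1 histone gene did.

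**Figure D3:**
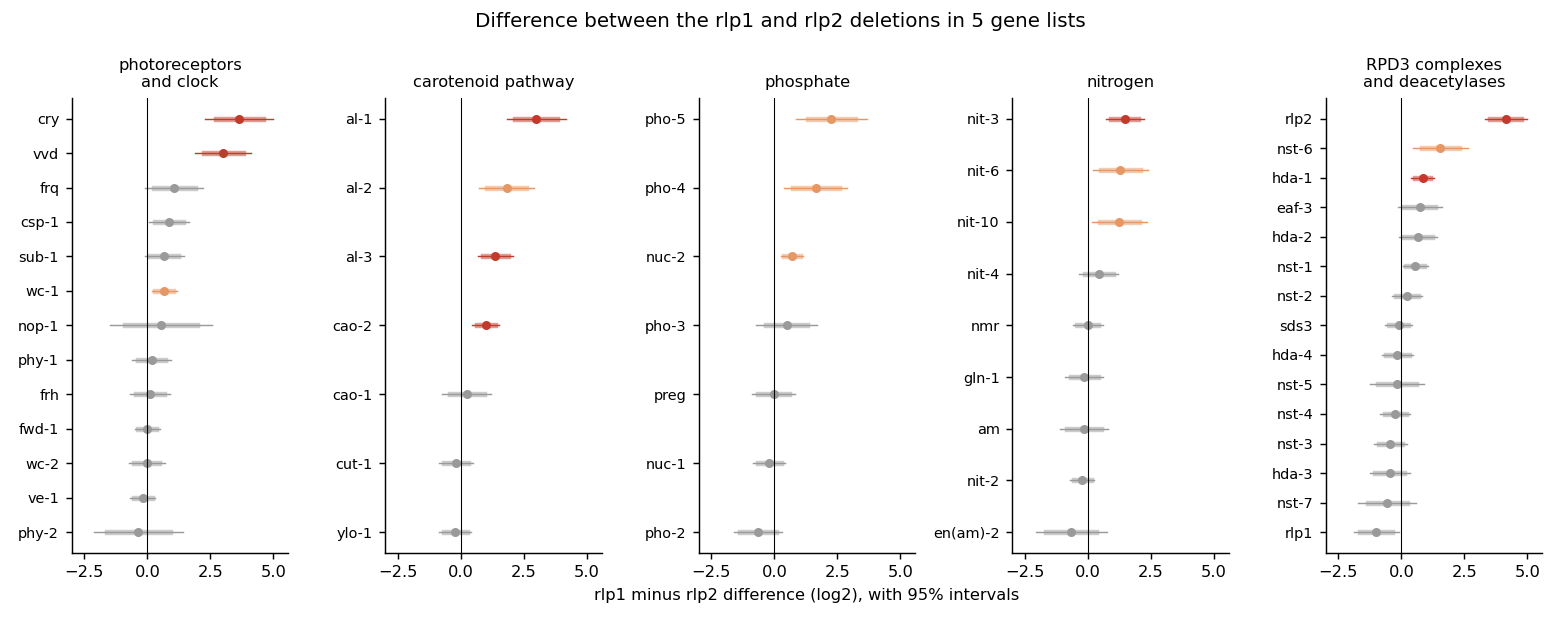
Each row is a gene of 1 of 5 lists, at its rlp1 minus rlp2 difference on the log2 scale (x axis), with the 95% interval from the conservative standard error (thin line) and the rebuilt one (thick bar). Red genes passed both tests, orange ones the second alone, and grey ones neither. Calls in these lists all lie to the right of 0, and rlp1 itself is the lowest gene of its list.

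As the plot of 5 lists shows, the calls rest on a few genes per list and the other members straddle 0. Single genes were called in further lists. For rpn-4, named after the yeast activator of proteasome genes, the levels were 840, 1221 and 2941 in wild type, without rlp2 and without rlp1 (difference 1.27 ± 0.36, adjusted p = 0.044). It was the only one of 30 proteasome genes called by either test (3.33%, beside 0.99% of all genes by the first and 4.23% by the second). The median of that list was -0.20. Outside the lists, and chosen after its values were seen, the phosphoenolpyruvate carboxykinase gene acu-6, whose enzyme serves glucose synthesis, had levels of 913 in wild type, 2678 without rlp2, 7574 without rlp1 and 10468 without sds3 (difference 1.50 ± 0.41, adjusted p = 0.0331). The glycoside hydrolase gene gh18-4 had levels of 19.1 in wild type, 53.9 without rlp2 and 298 without rlp1 (difference 2.47 ± 0.59, adjusted p = 0.00558), and was the only one called among 90 glycoside hydrolase and cellulose response genes tested (1.11%, beside 0.99% of all genes). The second test called 4 of these 90 higher (4.44%, beside 3.62% of all genes) and 3 lower (3.33%, beside 0.609%), the latter including gh61-9 at -1.02 and gh61-2 at -1.20.

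The perithecium is the sexual fruiting body. Levels of per-1, a gene of perithecial pigment, were 1.86 in wild type, 6.08 without rlp2, 2073 without rlp1, 244 without sds3 and 221 without eaf-3. The fitted difference was 8.41 ± 1.19 (adjusted p = 3.58e-09), a size that rests on levels near 0 in the rlp2 deletion and is no bound. Of 31 perithecial and meiotic genes it was the only one called (3.23%, beside 0.99% of all genes), and the list median was -0.19. By the second test 3 were called (9.68%, beside 4.23% of all genes). The second test also placed spo11, which makes the DNA breaks of meiosis, higher (42.8 without rlp2, 130 without rlp1, 0.935 in wild type) and poi-2 lower.

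No listed member passed either test among 12 sulfur, 7 quinate, 10 cytosolic ribosomal protein and 54 mitochondrial energy genes. The same held for the 13 heat shock, 6 polyketide synthase, 14 mating and 6 vegetative incompatibility genes listed. Lists were formed by symbol, symbol stem or locus tag, so genes of the same kind under other names are not covered. At an unadjusted p under 0.05 by the first test there were 1 polyketide synthase, 1 mating and 2 incompatibility genes and none in the other 5 lists; by the second there were 2 in each of these 3 lists, 1 quinate gene and 1 heat shock gene. For the sulfur genes the differences ran from -0.27 to 0.41. The ribosomal protein genes all lay below 0, from -0.29 to -0.09. Their median changes were -0.86 in the authors' deposited table for rlp1 and -0.67 in the authors' deposited table for rlp2. Of the 10 antioxidant genes, the catalase gene cat-2 passed the second test alone (0.99 ± 0.31, rebuilt, adjusted p = 0.0361). Its levels were 392 in wild type, 2008 without rlp2 and 3982 without rlp1.

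None of 14 mating genes passed either test, and their levels are given because the labels do not state the mating type of the strains. The level of matA-1, a gene of the A mating type locus, was 6.41 in wild type, 9.5 without rlp2, 12.4 without sds3, 0.177 without rlp1 and 0.189 without eaf-3. The pheromone gene of A strains, ccg-4, had levels of 152, 276, 42, 3.38 and 54.5 in the same order, and the pheromone gene of a strains, mfa-1, 547, 1566, 76.4, 5205 and 6355. Thus the rlp1 and eaf-3 deletions had the lowest matA-1 and the highest mfa-1. The errors were wide (the difference of matA-1 was -5.75, with an interval from -18.8 to 7.27) and the part of mating type in the differences was not tested.

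Genes with a symbol made up 14 of the 78 higher calls (17.9%) and none of the 13 lower ones, beside 12.1% of all genes tested. The genes that follow have none. NCU01861 had levels of 79.3 in wild type, 125 without rlp2, 4793 without rlp1 and 3034 without sds3, a difference of 5.26 ± 0.83 or 38.4-fold (adjusted p = 1.69e-07). NCU09773 stood at 9.54, 22.5, 1318 and 320 in the same groups (5.87 ± 0.81, adjusted p = 1.51e-09), and NCU03978 at 13.7, 3.9, 210 and 87.8 (5.75 ± 0.86, adjusted p = 3.9e-08). All 3 thus had low levels in wild type and in the rlp2 deletion and were high without rlp1 and without sds3. Larger fitted values, 8.95 ± 2.38 for NCU08085 and 8.52 ± 1.29 for NCU02324, were set by levels under 1 without rlp2 and are no bounds.

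The genes lower without rlp1 were expressed at a middle level in wild type, with a median of 423, against 138 for the higher genes and 389 for all genes. NCU00995 had levels of 6153 in wild type, 6965 without rlp2, 590 without rlp1, 3865 without sds3 and 96.0 without eaf-3, an 11.8-fold lower level without rlp1 (difference -3.56 ± 0.65, adjusted p = 2.17e-05). NCU09045 followed with 175, 114, 11.2, 67.1 and 526 (-3.35 ± 0.50, adjusted p = 4.31e-08). NCU09506 stood at 423, 435, 55.7, 149 and 1224 (-2.97 ± 0.46, adjusted p = 1.1e-07). The last 2 were thus lowest without rlp1 and highest without eaf-3, while NCU00995 was lowest without eaf-3.

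In 4 genes the 2 deletions moved the level to opposite sides of wild type, each past the FDR in its own table, and rlp2 itself is 1 of them. NCU03323 changed by 1.23 according to the authors' deposited table for rlp1 and by -0.78 in the authors' deposited table for rlp2. NCU07088 had values of 2.15 in the authors' deposited table for rlp1 and -1.63 in the authors' deposited table for rlp2. NCU05909 went the other way, with -0.99 in the authors' deposited table for rlp1 and 1.00 in the authors' deposited table for rlp2. All 4 also passed the first test of the difference, which adds little, since they were picked for opposite changes that each passed an FDR.

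The sds3 and eaf-3 deletions offer a view of the called genes from libraries that do not enter the difference. This view is not fully separate, since these changes are read against the same wild type group. The errors of the first test may also draw on these libraries, because 1 dispersion per gene matched the errors of all 4 comparisons closely. In the authors' deposited table for sds3, 61 of the 78 higher genes had risen (78.2%) and 2 had fallen, with a median of 1.63, whereas 19% of all genes had risen. In the authors' deposited table for eaf-3, 35 of the 78 had risen (44.9%) and 3 had fallen, with a median of 0.68, against 20.2% of all genes. Of the 13 lower genes, 7 had fallen (53.8%) and none had risen in the authors' deposited table for sds3, where 15.7% of all genes fell. Conversely, 9 of these 13 had risen (69.2%) and 1 had fallen in the authors' deposited table for eaf-3, at a median of 1.37. By sign alone, 12 of the 13 lay below wild type in the authors' deposited table for sds3 and 11 above it in the authors' deposited table for eaf-3.

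**Figure D4:**
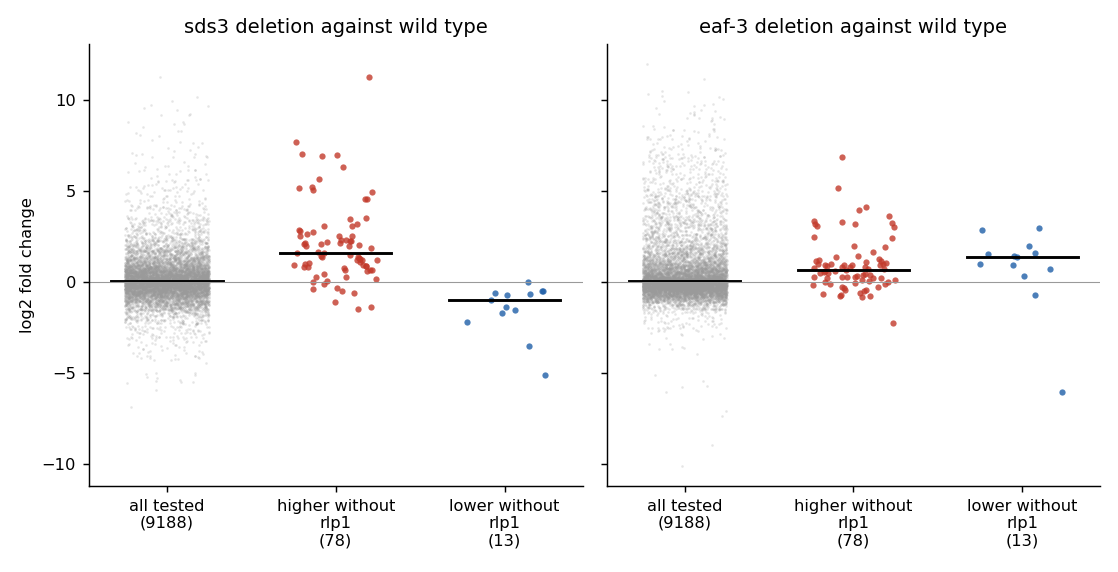
Log2 fold change against wild type (y axis) in the sds3 deletion (left) and the eaf-3 deletion (right) for all 9188 genes tested (grey), the 78 genes higher without rlp1 (red) and the 13 lower (blue); each point is a gene and each bar a median. The red medians were 1.63 and 0.68, and the blue median was -0.98 in the sds3 deletion and 1.37 in the eaf-3 deletion.

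As the plot for the other deletions shows, the lower genes separate the 2 panels: their median was -0.98 in the authors' deposited table for sds3. The second test gave a wider set, but its error drew directly on the sds3 and eaf-3 comparisons. Of its 333 higher genes, 191 had risen (57.4%) in the authors' deposited table for sds3 and 121 (36.3%) in the authors' deposited table for eaf-3. Of its 56 lower genes, 27 had fallen (48.2%) in the authors' deposited table for sds3 and 25 had risen (44.6%) in the authors' deposited table for eaf-3.

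Called genes lay on every linkage group, the chromosomes of Neurospora, at between 0.52% (linkage group III) and 1.62% (II) of the genes tested there. By the second test the shares ran from 3.64% (III) to 5.33% (VII). Linkage group VII, with 976 of the 9188 genes tested, held 5 of the 13 lower genes and 5 of the 78 higher ones. Called genes were also found side by side. With at most 1 uncalled gene between them, 17 of the 91 genes of the first test stood in 8 runs of at least 2 genes in the same direction, the longest of 3. By the second test 99 of 389 stood in 41 runs, and 9 runs held at least 3 genes. How many such runs a random gene order would give was not tested.

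By the second test the longest run held 8 genes on linkage group VII, from NCU05762 to NCU05766. Of these only NCU05762 passed the first test (adjusted p = 0.0245). Levels of the 8 genes were between 0.172 and 13.3 in wild type and between 95.2 and 915 without rlp1. Without rlp2 the first 6 had levels between 1.74 and 11.8, while NCU17271 and NCU05766 reached 142 and 418. Differences fell from 7.20 for NCU05763 to 1.44 for NCU17271 and 1.13 for NCU05766. The levels without rlp2 were thus highest at one side of the run. On linkage group II, 5 neighbouring genes from NCU09775 to NCU09771 had differences of 3.16, 4.84, 5.87, 1.50 and 2.21. Of these only NCU09773 and NCU09771 passed the first test. On linkage group I, 4 genes from NCU02700 to NCU02703 had differences of 2.69, 2.16, 1.19 and 1.53, and all but NCU02703 passed the first test. Only 1 of the 9 runs of the second test was lower without rlp1. It held NCU11405, NCU09506 and NCU09505 on linkage group III at -2.40, -2.97 and -0.92, the last past the second test alone.

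**Figure D5:**
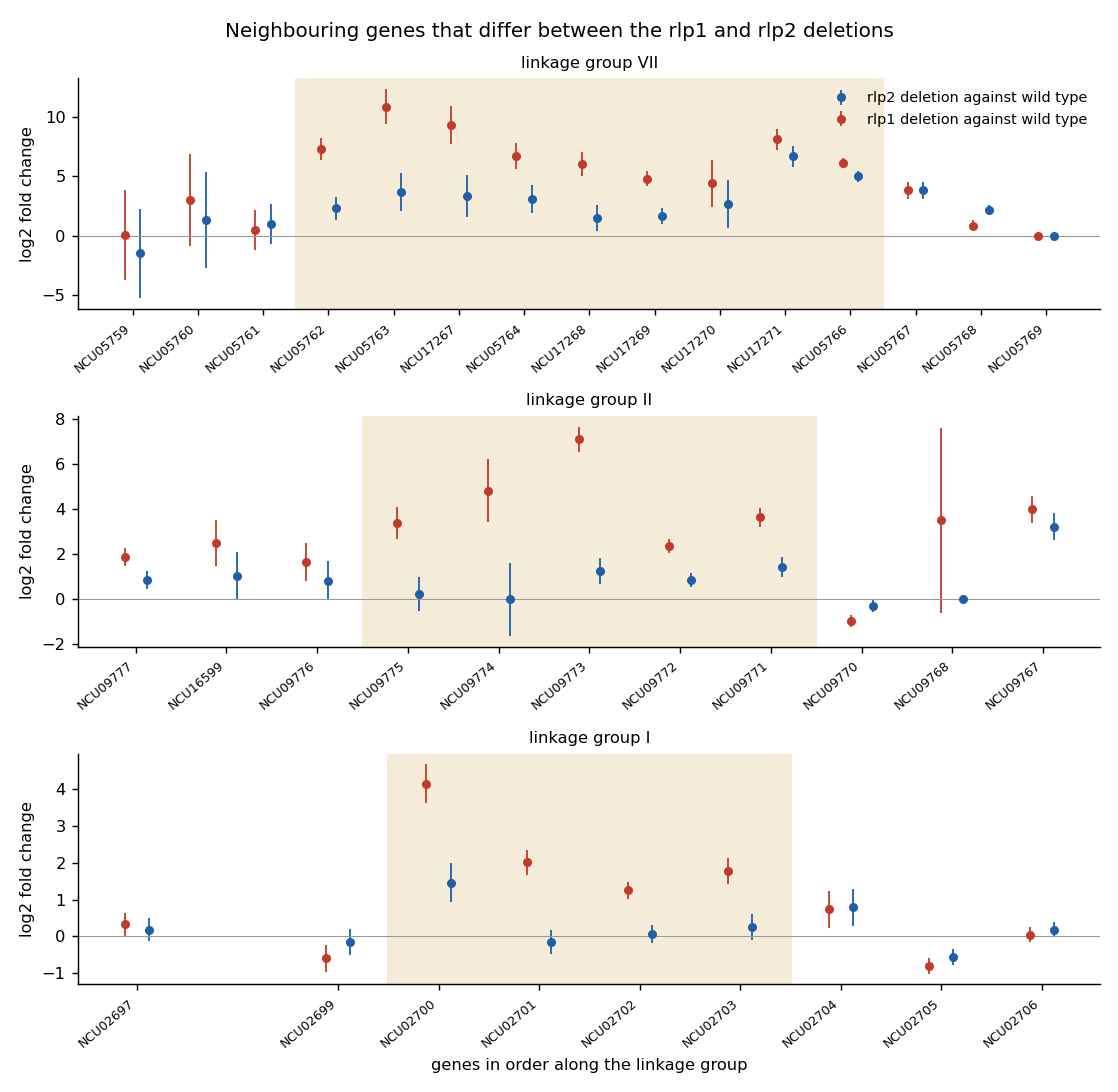
Log2 fold change against wild type (y axis) of neighbouring genes in their order along linkage groups VII, II and I (x axis) without rlp1 (red) and without rlp2 (blue); bars are standard errors implied by the deposited p-values. The shaded runs of 8, 5 and 4 genes were higher without rlp1 by the second test (1 gene within the first run was not called), and the flanking genes were not.

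In the plot of neighbouring genes the genes just outside each run were not called higher, and beside the run on linkage group VII, NCU05768 (poi-2) was lower without rlp1 by the second test. By the second test NCU01861, above, is also the middle gene of a run of 3 on linkage group I, between differences of 1.35 for NCU01862 and 3.18 for NCU01860.

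Chromosome ends were read separately, since the labels mark NCU05173 and NCU07152, which lie 23 genes from an end of linkage group IV and 10 from an end of V, as promoters of reporter genes. NCU05173 had levels of 1.86 in wild type, 268 without rlp2 and 137 without rlp1, and NCU07152 had 0.472, 12.1 and 3.33. Both levels were higher without rlp2 than without rlp1, but the differences were -0.97 (95% interval from -3.38 to 1.44) and -1.86 (from -6.72 to 3.00) and passed neither test. Among 663 genes within 50 genes of an end, 4 were called higher and 3 lower, 1.06% against 0.99% of all genes. By direction, the ends held 5.13% of the 78 higher genes and 23.1% of the 13 lower ones, beside 7.22% of all genes tested. Of the 3 lower genes, NCU11405 and NCU09506 are neighbours. By the second test 22 were higher (3.32%) and 10 lower (1.51%), beside 3.62% and 0.609% of all genes. Of these 10, NCU07147 and NCU16906 were nearly silent in wild type and high in both deletions. NCU07147, 5 genes from an end of linkage group V, had levels of 0.173 in wild type, 1484 without rlp2 and 678 without rlp1. NCU16906, 2 genes from an end of IV, had 0.465, 630 and 265. Their differences were -1.13 ± 0.24 and -1.25 ± 0.28 by the second test (adjusted p = 0.000278 and 0.000665), and neither passed the first, with differences of -1.13 ± 2.06 and -1.25 ± 2.08.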

How the data were processed

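Messenger RNA libraries of 5 groups of 2 were read through 4 tables of the authors' own comparisons, 1 per deletion against wild type; the Trichostatin A table was not used. The submitters' processing notes list DESeq2 1.24.0, RSEM 1.3.1 and STAR 2.7.3a. How each was set, which build and annotation they used and how strand was counted is not given in the sources. The columns deposited by the authors are, per the file headers, a normalized average signal, the log2 fold change, its p-value with FDR, and a score for the category of change. Library values, and so read depth, are not in these tables.

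The standard error implied by a deposited p-value is the absolute log2 fold change over its normal quantile. The conservative test took the root of the summed squares. The rebuilt error solved 1 dispersion per gene from the 4 tables (2 libraries per group, levels under 0.5 set to 0.5). It matched the deposited errors it was solved from within 5% for at least 9255 genes in each table. That match is partly built in, and it was read without the raised dispersion that follows. For 140 genes with a wild type level under 10, the dispersion was raised to the median of genes of like average (20 bins); this was added after seeing the data. Calculations used Python 3.11.15, numpy 2.4.6, scipy 1.17.1 and statsmodels 0.14.6, and were tested on simulated data.

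Symbols and gene order came from the NC12 gene table (9476 of 9477 matched, 1116 with a symbol). Lists were formed by symbol, symbol stem or locus tag, and 52 listed symbols had no match; stems can take in unrelated genes, such as plc-1 among the cellulose genes. The genes compared, the lists and the tests were chosen with earlier results of these data known. Genes named in the text were the deleted and reporter genes, the 8 largest and 6 clearest differences in each direction among called genes with an average of at least 20, genes moved in opposite directions, and up to 4 per list with all members of 6 lists; of these the few that matter are given. Genes named for their place in a run or at an end were chosen after their values were seen. Paralogs and overlapping genes may share reads, so values of such genes are uncertain. No sequence was used here.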

Additional observations from a re-analysis of the deposited data

Results flagged for a closer look

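In 4 genes the rlp1 and rlp2 deletions had effects in opposite directions against wild type, each past an FDR of 0.05 in the authors' deposited table. The difference itself passed the conservative Wald test, a pass that this choice of genes made very likely. The first was rlp2 (NCU02898), the gene deleted in 1 of the groups, with a difference of 4.13 (adjusted p = 2.54e-18). For NCU03323 the difference was 2.00 ± 0.30 (adjusted p = 4.67e-08). For NCU07088 it was 3.78 ± 0.79 (adjusted p = 0.000522). NCU05909 was lower without rlp1, with a difference of -1.99 ± 0.42 (adjusted p = 0.000522), and its levels were 90.0 in wild type, 180 without rlp2, 45.4 without rlp1, 45.6 without sds3 and 660 without eaf-3.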

How the results depend on the processing

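The conservative test called 78 genes higher and 13 lower. Assigning a fixed part of the smaller squared error to wild type, as planned, gave 302 and 48, the rebuilt error 337 and 60, with its dispersion raised where wild type is nearly silent 333 and 56, and with no minimum level 335 and 66 (the last 2 settings were chosen after seeing the data). All these contain the 91 first calls; the gain follows from the smaller error. At an adjusted p under 0.01, 45 and 12 remained. A minimum average of 10, genes with a deposited FDR in both tables and centring on the median difference each gave 82 and 13, and a difference of at least 1 gave 73 and 13. No named gene changed direction, but these settings could hardly show such a change. They alter the error, the threshold or the genes kept, and only the centring moves the difference itself, by a very small amount. No paired analysis was possible because no table holds values per library; for the same reason leaving out each replicate was not run. The samples were 2 strains per group, and how far 1 strain decides a value cannot be read.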

Other observations

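The 6 genes below belong to no list above and were picked after their values were seen, so they say nothing about the pathways they work in. Each was higher without rlp1 by the rebuilt error alone, and each ± here is rebuilt. The quelling gene qip, whose product works with the Argonaute of this pathway, had levels of 224 in wild type, 267 without rlp2 and 539 without rlp1 (difference 1.01 ± 0.20, adjusted p = 5.89e-05, and 0.0545 by the conservative test). Both Dicer genes lay on the same side, dcl-2 at 0.99 ± 0.25 (adjusted p = 0.00358) and dcl-1 at 0.86 ± 0.25 (adjusted p = 0.0209). The photolyase gene phr, whose product repairs ultraviolet damage with light, stood at 315, 563 and 1490 in the same order (1.40 ± 0.44, adjusted p = 0.0362). The repair gene mus-21 had a difference of 0.90 ± 0.20 (adjusted p = 0.000415) and the mismatch repair gene mlh-1 one of 0.87 ± 0.26 (adjusted p = 0.0308).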
